A study of Arabidopsis thaliana with 5 samples.

Results

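The structural rearrangements described here have both ends on an organelle genome of Arabidopsis thaliana, the chloroplast or the mitochondrion. They were taken from the unfiltered lists of structural variants of 5 long-read libraries, by keeping each call whose pair of best positions lay on organelle sequences. This gave 115 of 634 calls with 230 ends, of which 88 lay within the chloroplast, 27 within the mitochondrion and 0 joined the chloroplast to the mitochondrion. A count of 0 in 115 calls allows a share of up to 2.61%, taken as 3 calls of the total and for counting error only. This limit treats calls as independent, although many are repeat calls of the same join. With repeat calls of a library counted once 44 calls remained, so the true limit is higher. A call is a place where split reads, reads whose pieces align apart, put 2 positions next to each other in an order that the reference does not have.

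All plants were of the Columbia ecotype (Col-0) and had been picked as mutants after irradiation of their seeds, and no unirradiated library was analysed here. Antarctic mutants 1 and 2 and the 6 plants of the Antarctic pool belong to the M0 generation, and their seeds had been exposed to cosmic radiation for 30 days at about 35 km altitude. They were extracted as frozen whole plants, mutant 1 at 44 days, mutant 2 at 45 days and the pool at 21 days with 1 plant at 17 days. Simulated-radiation mutants 4 and 5 belong to the M1 generation, and their seeds had been given 10.62 rad of hydrogen, 3.165 rad of helium, 1.08 rad of oxygen and 0.735 rad of titanium ions. They were moved to soil and sampled at 45 days as a fresh single leaf. Exposure, generation and tissue cannot be told apart in these groups. Each single-plant library is 1 plant, and the pool does not show which of its plants carries a call.

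The chloroplast genome of land plants is a small circle of photosynthesis and gene-expression genes, present in many copies per cell. A pair of long inverted repeat arms with the same sequence splits it into a large and a small single-copy region, and recombination between the arms turns these regions around. Plant mitochondrial genomes are larger, hold respiratory genes in much non-coding sequence, and recombine through repeats into several arrangements. In a reference file a circle is cut open and written as a line, so the first and the last base of the file are neighbours in the molecule.

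Organelle calls numbered 19 in Antarctic mutant 1, 20 in Antarctic mutant 2, 33 in simulated mutant 4, 23 in simulated mutant 5 and 20 in the Antarctic pool. They made up between 11.0% of all calls, in the pool, and 23.4%, in mutant 4. The filtered lists held 291 calls and 0 with an end on an organelle. The lists give no sequencing depth, so the evidence behind a call is its number of split reads, and that number ran from 5 to 10 in the organelle calls. A call missing from a library can therefore mean too few reads.

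**Figure D1:**
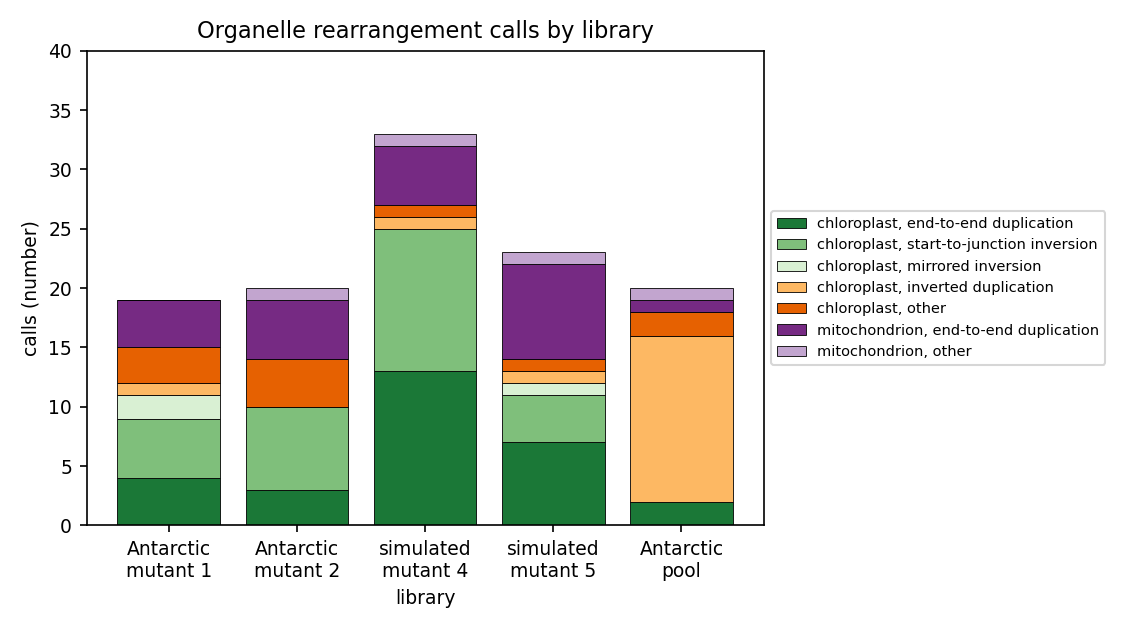
Number of organelle calls (vertical axis) in each of the 5 libraries (horizontal axis), stacked by sequence and kind of join. The end-to-end and start-to-junction joins fill most of the 4 single-plant bars, with 25 of 33 calls in the chloroplast part of mutant 4 alone, while inverted duplications make up 14 of the 20 calls of the pool.

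Most of the calls fell on 3 recurrent joins. They were duplications that run from the first to the last bases of the chloroplast sequence, duplications that do the same on the mitochondrial sequence, and inversions that join the start of the chloroplast sequence to position 84171. Together these were 80 of 115 calls (69.6%). Of 172 chloroplast breakpoints, with 1 counted for each insertion, 114 (66.3%) lay within 100 bp of the start, the end or position 84171, and of 54 mitochondrial breakpoints 46 (85.2%) lay within 100 bp of the start or the end. These windows were set after the positions had been seen, so the shares are a description.

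The chloroplast end-to-end duplication was called in all 5 libraries, in 29 calls. There were 4 calls in Antarctic mutant 1, 3 in Antarctic mutant 2, 13 in simulated mutant 4, 7 in simulated mutant 5 and 2 in the pool. Mutant 4 had the most and the pool the fewest, and the calls of 1 library are repeat calls of the same join, not separate events. First ends lay between 0 and 21 with a median of 3, and second ends between 154440 and 154479 with a median of 154476, where 154479 is the highest chloroplast position in the lists. Both ends lay within 5 bp of the start and of that highest position in 15 of the 29 calls. All 29 had the strand signs minus and plus, and each had 5 to 7 split reads. In the lists 12 of them were labelled precise.

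The mitochondrial end-to-end duplication was likewise called in all 5 libraries, in 23 calls. There were 4 calls in Antarctic mutant 1, 5 in Antarctic mutant 2, 5 in simulated mutant 4, 8 in simulated mutant 5 and 1 in the pool. First ends lay between 0 and 33, and second ends between 366904 and 366924, the highest mitochondrial position in the lists. Both ends lay within 5 bp of the extremes in 14 of the 23 calls. The split reads per call ran from 5 to 10 with a median of 7, against a median of 5 in the chloroplast form of this join. The call with most reads in the mitochondrion was of this form in each library, with 10 reads in mutant 4, 9 each in mutants 2 and 5 and 8 each in mutant 1 and the pool. In both organelles the outermost bases of the reference were thus called as joined in every library of both exposures. Whether reads that cross the cut in the circle gave these calls was not tested.

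The start-to-junction inversion of the chloroplast was called in the 4 single-plant libraries, in 28 calls, and 0 calls of it were listed for the pool. There were 5 calls in Antarctic mutant 1, 7 in Antarctic mutant 2, 12 in simulated mutant 4 and 4 in simulated mutant 5. First ends lay between 0 and 6, and second ends between 84171 and 84175. Its ends were tighter than those of the end-to-end duplication, since both lay within 5 bp of the start and of 84171 in 27 of 28 calls, and 18 of the 28 were labelled precise. All had minus signs on both strands, and each had 5 to 7 reads. Position 84171 lies in rps19, a gene for a protein of the small ribosomal subunit. It is also the position taken below as the outer edge of a repeat arm. The arms have the same sequence, so the part of a read that lies in an arm fits either arm. Whether the start-to-junction calls are the end-to-end join with that part placed on the other arm was not tested. The first position columns of the lists, which are less refined than the best positions, put the first ends of these calls as far as 270 and the second ends as far as 84640.

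**Figure D2:**
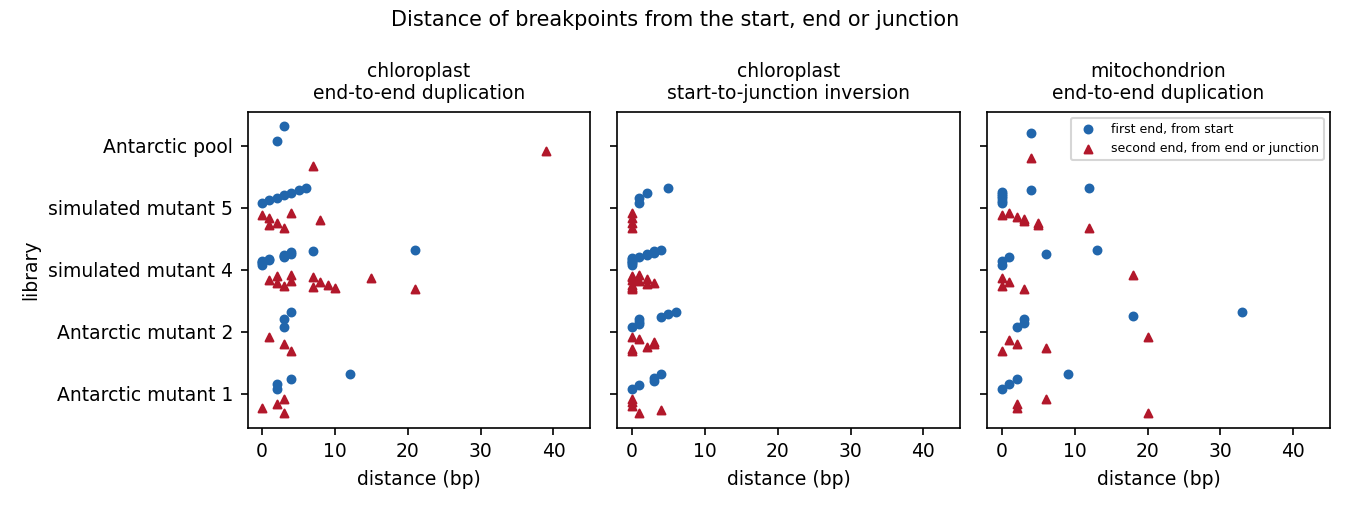
Distance in bp (horizontal axes) of each call's first end from the start of the sequence (blue circles) and of its second end from the highest listed position or, in the middle panel, from position 84171 (red triangles), by library. Inversion ends in the middle panel lie within 6 bp, whereas end-to-end duplications reach 39 bp in the chloroplast and 33 bp in the mitochondrion, and the middle panel has no point for the pool.

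A further 3 chloroplast inversions joined mirror positions, that is, positions at the same distance from the outer ends of the repeat arms. If 84171 is the outer edge of 1 arm and 154479 that of the other, mirror positions add up to a fixed sum. In the gene table used for names, 11 of 11 repeated gene pairs beyond 84171 had a sum 1 bp below that of the lists. In Antarctic mutant 1 an inversion from 108844 to 129804 lay between trnR and trnN, a pair of transfer RNA genes, in both arms, and its sum was 2 bp below. A second one of mutant 1, from 109608 to 129040, had both ends in ycf1, which encodes a part of the chloroplast protein import machinery, and was also 2 bp below. In simulated mutant 5 the inversion ran from 85047 to 153587, with both ends in the copies of rpl2, a ribosomal protein gene, and was 16 bp below. Each of these calls had 5 reads and was labelled imprecise, and none had a partner in another library. The sequence beyond a mirror position is the same in both arms, so a read placed there fits either arm. Whether these calls come from such placement was not tested.

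Outside the recurrent joins and the mirrored inversions, 32 calls were left, 28 in the chloroplast and 4 in the mitochondrion. Of the chloroplast calls 4 were in Antarctic mutant 1, 4 in Antarctic mutant 2, 2 in simulated mutant 4, 2 in simulated mutant 5 and 16 in the pool. None of the 28 chloroplast calls had a partner in another library. Of their 52 breakpoints 37 (71.2%) lay in a gene body, introns included, while gene bodies cover 69.9% of the sequence. In the large single-copy region before 84171 lay 37 of the 52 (71.2%), and this region is 54.5% of the sequence. That share counts both repeat arms in full, although a read in an arm fits either arm. Of the 52 breakpoints 34 are ends of inverted duplications, whose median length was 45 bp, so breakpoints are not independent. Whether either matters for the shares here was not tested. The 52 breakpoints met 19 of the 108 named chloroplast genes of the table (17.6%). By list they met 3 of 7 photosystem I genes (psaA, psaC and ycf3), 1 of 15 photosystem II genes (psbB), 1 of 6 ATP synthase genes (atpF), 2 of 11 genes of the NDH complex (ndhF and ndhI) and 1 of 16 genes of the inverted repeat (ycf1).

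The call with most reads in Antarctic mutant 1 was a deletion inside rpoB, which encodes the beta subunit of the plastid RNA polymerase. It was listed in a pair of calls, from 24218 to 25941 with 7 reads and from 24225 to 25947 with 10 reads. The calls were shifted by 7 bp at the first end and by 6 bp at the second, and their predicted lengths were 1723 and 1722 bp. Both were labelled precise, and no other library listed a deletion within 500 bp of both ends. How many of the plant's chloroplast genomes carry it cannot be read from the lists, since they give no reads without the join.

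In Antarctic mutant 2 the chloroplast call with most reads, 10, was an inversion from 16976 in rpoC2, a subunit gene of the plastid-encoded RNA polymerase, to 111663 in ndhF, a subunit gene of the NDH complex of cyclic electron flow. It was labelled imprecise. In Antarctic mutant 1 an imprecise inverted duplication of 960 bp, the longest of its type in the chloroplast, reached from 77009 in petD, a cytochrome b6f subunit gene, to 77969 in rpoA, the alpha subunit gene of that polymerase.

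Outside the recurrent joins and the mirrored inversions, 5 calls linked chloroplast positions more than 10 kb apart, and in 5 of 5 the first end lay before 84171 and the second beyond it. The region before 84171 is 54.5% of the sequence, so many pairs of distant positions lie on either side of it. The 3 mirrored inversions, also longer than 10 kb, had both ends beyond 84171 and are not in this count. The inversion from rpoC2 to ndhF in mutant 2 was 1 of the 5. A deletion of 42252 bp in mutant 1 joined 81372 in rpl16, a ribosomal protein gene, to 123624 between rps15 and ycf1, with 5 reads and a precise label. A deletion of 67936 bp in mutant 2, the longest deletion, joined 42185 between psaA and ycf3 to 110121 in ycf1, with 6 reads and an imprecise label. Simulated mutant 5 had a duplication of 83968 bp from 40655 in psaA, a core protein gene of photosystem I, to 124623 in ycf1, with 6 reads and a precise label. The longest of the 5 was an inversion of 137064 bp in the pool. It ran from 2349 in matK, the maturase gene inside the intron of trnK, to 139413 between a transfer RNA gene and rps7, with 5 reads and a precise label. None of the 5 was in simulated mutant 4. Loss or gain of the sequence between such ends was not tested.

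Insertions in the chloroplast were few and weakly supported, with 5 reads each. Antarctic mutant 2 had an insertion of 100 bp at 43788 in ycf3, a gene for a photosystem I assembly factor. It had another of 186 bp at 45453 in rps4, a ribosomal protein gene. The longest insertion, 199 bp, was at 73608 in psbB, a core antenna gene of photosystem II, in the pool. An insertion at 36278 between psbZ and trnG in mutant 4 was labelled unresolved and has no length. Each of the other 3 was labelled imprecise.

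**Figure D3:**
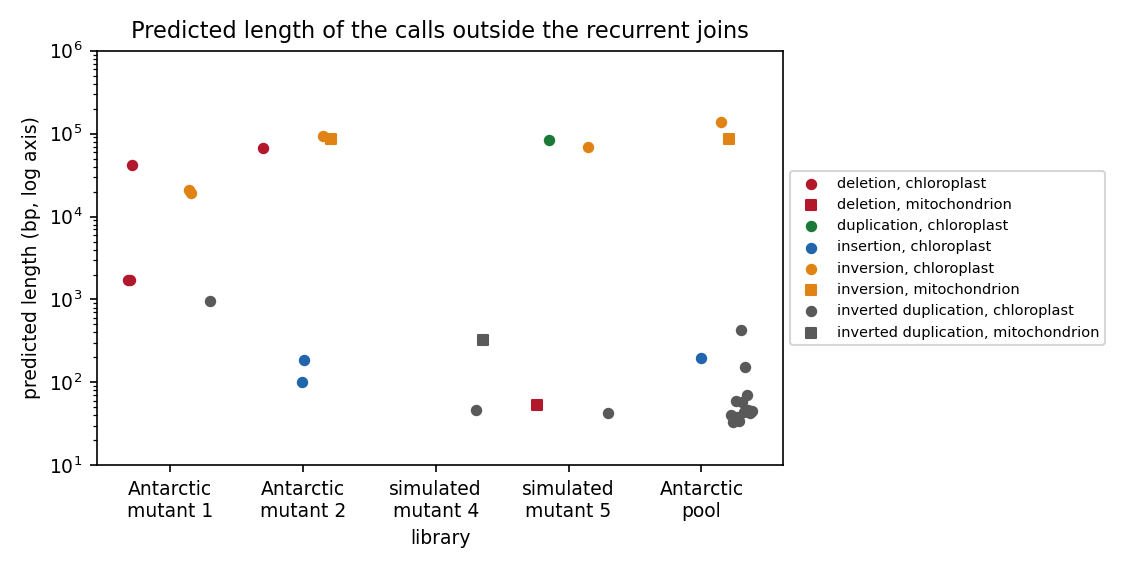
Predicted length in bp (vertical log axis) of each call outside the recurrent joins, by library, with colour for type and circles or squares for chloroplast or mitochondrion. The inverted duplications of the pool lie mostly under 100 bp, and none of those longer than 10 kb is in mutant 4. The unresolved insertion has no length and is not drawn.

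Inverted duplications, in which a short stretch is followed by its reversed copy, were 18 of the organelle calls, and 14 of these were in the Antarctic pool. They made up 14 of its 20 organelle calls, or 70.0% (exact Clopper-Pearson 95% interval, 45.7% to 88.1%). In its nuclear calls the share was 97 of 143, or 67.8% (interval 59.5% to 75.4%). The 4 single-plant libraries together had 4 in 95 organelle calls (4.21%, interval 1.16% to 10.4%) and 11 in 230 nuclear calls (4.78%, interval 2.41% to 8.40%). With every listed call counted, the organelle share lay inside the interval of the nuclear share in the pool and in the single plants. In the single plants this rests on repeat calls of the recurrent joins. With repeat calls counted once, 29 of their 95 organelle calls remained. Outside the recurrent joins and the mirrored inversions 15 remained, and the 4 inverted duplications are a larger share of either number. In the pool 17 calls remained outside these joins. Its 14 inverted duplications are a larger share of the 17 than of all 20, and one above the nuclear interval. The intervals treat calls as independent and cover counting error only, and with 1 pool there is no test between the pool and single plants. Plants of the pool were 17 to 21 days old and were 6 in number, so age, number of plants and library cannot be told apart.

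The inverted duplications of the pool lay in the chloroplast in 14 of 14 cases. Their predicted lengths ran from 33 to 429 bp with a median of 44.5 bp, and only 2 of the 14 were longer than 100 bp. Strand signs were plus on both ends in 10 and minus on both ends in 4. The call with most reads, 10, was 41 bp long at 3631 in trnK, outside matK. Next came 1 with 9 reads, 43 bp long, from 119204 before ndhI to 119247 inside it, in a gene of the NDH complex. A second call with 5 reads lay from 119203 to 119249, and another with 5 reads from 119461 to 119506 in the same gene. The 3 calls in rpoC1, a further polymerase subunit gene, began at 22618, 22641 and 22644 and ended at 22677, 22679 and 22678, with 5, 6 and 5 reads. Matched within 500 bp at both ends, 6 of the 14 calls thus fell on 2 places, although the call from 119461 does not overlap the pair before it.

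The other inverted duplications of the pool were single calls of 5 to 7 reads. Those in genes lay at 5300 in rps16, a ribosomal protein gene, at 11909 in atpF, an ATP synthase subunit gene, at 110565 in ndhF, and from 117292 to 117362 with the second end in psaC, an iron-sulfur subunit gene of photosystem I. Those between genes lay at 29176 between psbM and trnD, where the longest one of the pool (429 bp) was, at 42251 between psaA and ycf3, and at 51982 between trnV and trnM. Single plants had 1 chloroplast call of this type in each of mutants 1, 4 and 5. That of mutant 4 was 47 bp long at 60746 in cemA, an envelope membrane protein gene, and that of mutant 5 was 43 bp long at 63029 between petA and psbJ. None of these had a partner in the pool.

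The mitochondrion had 4 calls beside its end-to-end duplication. An inversion from 12546 to 98710 in Antarctic mutant 2 and an inversion from 12546 to 98709 in the Antarctic pool matched within 1 bp, with 5 reads each, precise labels and plus signs on both strands. It was the only organelle join outside the end-to-end and start-to-junction forms that was found in more than 1 library, and both libraries that held it were of Antarctic plants. Most of the libraries were of Antarctic plants, however, and Antarctic mutant 1 did not list the join. As 5 reads is the lowest number in the lists, its absence elsewhere can mean too few reads, and a link to exposure was not tested. Simulated mutant 5 had a precise deletion of 53 bp from 12398 to 12451, which ended 95 bp before the first end of that inversion. Among 100 joins of the nucleus to the mitochondrion, 8 ended within 1000 bp of 12546, with 1 or 2 in every library, and 0 ended within 1000 bp of 98709. Simulated mutant 4 had an imprecise inverted duplication of 327 bp at 184346. The deletion and the inverted duplication had 5 reads each. Mitochondrial genes are not named, because the gene table gave no check that its mitochondrial positions are those of the lists.

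Recurrence was compared with that of nuclear calls. A call recurred when another library had a call of the same type with both ends within 500 bp. Of the 115 organelle calls 82 recurred (71.3%), against 42.0% of all 634 calls, 31.9% of the 373 calls with both ends nuclear and 44.5% of the 146 joins of the nucleus to an organelle. The recurring share in organelle calls was 68.4% in Antarctic mutant 1, 80.0% in Antarctic mutant 2, 90.9% in simulated mutant 4, 82.6% in simulated mutant 5 and 20.0% in the pool. In nuclear calls it was 43.3%, 57.9%, 36.6%, 49.2% and 10.5% in the same order. The organelle share was thus higher in 5 of 5 libraries, and the pool was lowest in both.

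The mean share was 68.4% ± 28.2 (SD, n = 5) in organelle calls and 39.5% ± 18 (SD, n = 5) in nuclear calls. By an exact two-sided sign-flip permutation over libraries, this difference of 28.9 percentage points had p = 0.0625, which is the smallest p that 5 pairs allow (0.0625 after Benjamini-Hochberg adjustment over 3 paired results). A call recurs through a match in another library, so the shares of the 5 libraries depend on each other. The permutation treats them as independent and does not allow for this. Of the 82 recurring organelle calls 80 were of the recurrent joins, which were chosen because they recur, and 2 of the 32 calls outside these and the mirrored inversions recurred. With repeat calls of a library counted once the difference in share was 4.67 points (exact permutation p = 0.375). Among calls with at least 10 reads it was -52.3 points in the 4 libraries that had both kinds (exact permutation p = 0.125). Each of these libraries had only 1 organelle call at that cut, and calls were matched only among those kept. The value at that cut therefore cannot show how often organelle joins recur.

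**Figure D4:**
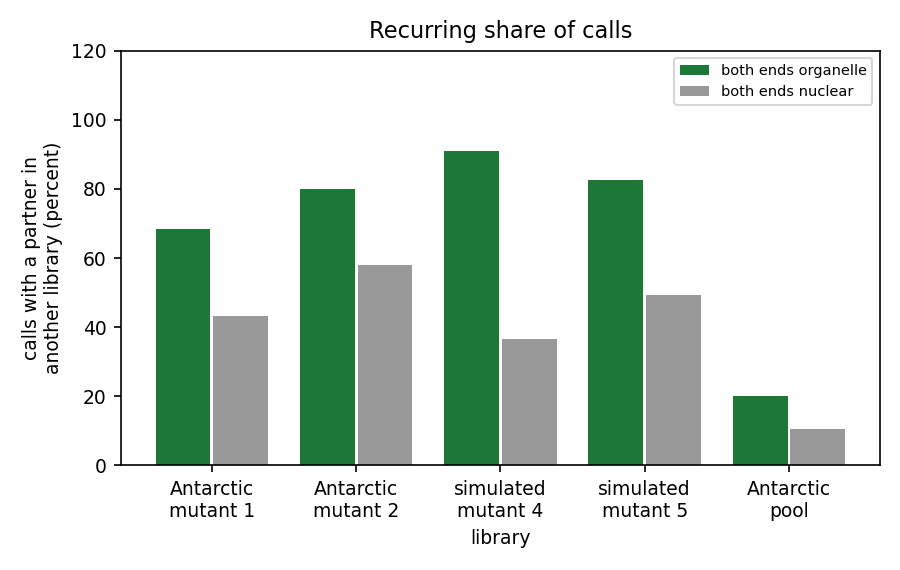
Percent of calls with a partner in another library (vertical axis) for calls with both ends on an organelle (green) and both ends nuclear (grey), in each library. The green bar is the taller in each of the 5 libraries, and both bars are lowest in the pool, at 20.0% and 10.5%.

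Support per call was low, and reads of repeat calls of the same join were not added up. Of 88 chloroplast calls 62 had exactly 5 reads, the lowest number in the lists, and 3 had 10. Mitochondrial calls had 5 reads in 8 of 27 cases and 8 or more in 10. The median over organelle calls was 5 reads in mutants 1, 2 and 4 and in the pool and 6 in mutant 5, while for nuclear calls it was 7 in the 4 single plants and 6 in the pool. The means of these medians were 5.2 ± 0.447 (SD, n = 5) and 6.8 ± 0.447 (SD, n = 5), a difference of -1.6 reads, lower in 5 of 5 libraries (exact sign-flip permutation p = 0.0625, the smallest that 5 pairs allow; 0.0625 after Benjamini-Hochberg adjustment). Nuclear calls include translocations with up to 77 reads, whereas nuclear calls within 1 chromosome had at most 10. Against the latter the difference was -0.9 reads (exact permutation p = 0.125). Against all nuclear calls, with repeat calls of a library counted once, it was -1.2 reads (exact permutation p = 0.125).

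**Figure D5:**
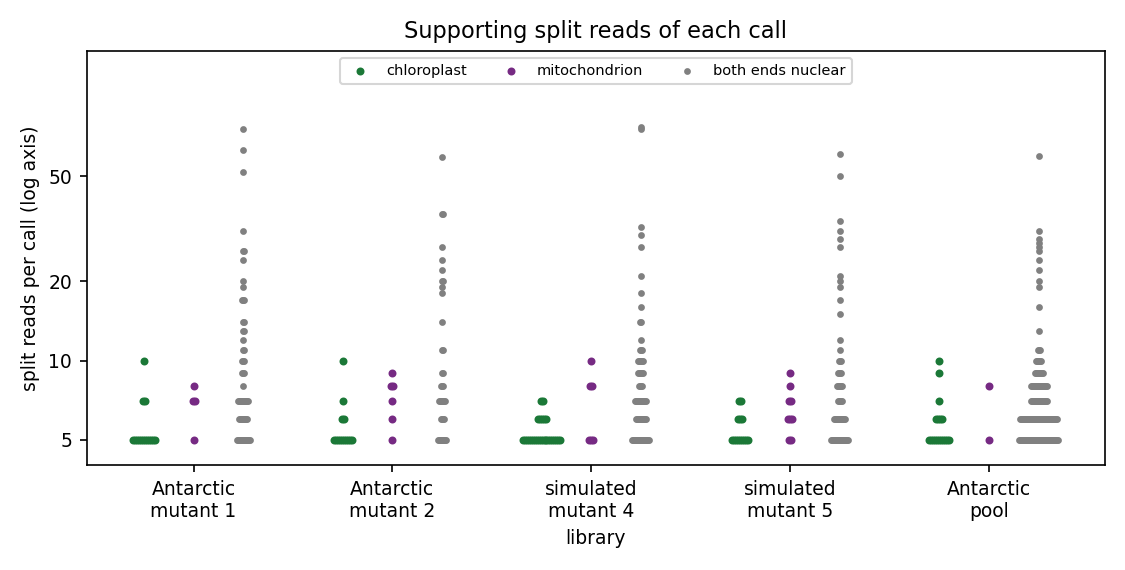
Split reads of each call (vertical log axis) by library, with chloroplast calls in green, mitochondrial calls in purple and calls with both ends nuclear in grey. Organelle calls end at 9 or 10 reads in each library, where grey points reach between 59 and 77, and most green points lie at 5.

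The chloroplast had more calls than the mitochondrion in each library, with 15 against 4 calls in Antarctic mutant 1 and 14 against 6 in Antarctic mutant 2. The numbers were 27 against 6 in simulated mutant 4, 14 against 9 in simulated mutant 5 and 18 against 2 in the pool. The means were 17.6 ± 5.50 and 5.4 ± 2.61 (SD, n = 5), and the difference was 12.2 calls (exact sign-flip permutation p = 0.0625, 0.0625 after Benjamini-Hochberg adjustment). Over the sequence up to its highest listed position, this was 57.0 calls per 100 kb in the chloroplast and 7.36 in the mitochondrion. Outside the recurrent joins and the mirrored inversions it was 18.1 and 1.09. With repeat calls counted once the difference was 5.2 calls (exact permutation p = 0.0625), and with at least 10 reads it was 0.4 (exact permutation p = 0.625). Among calls with at least 8 reads it turned to -1.2 calls (exact permutation p = 0.25). How many copies of each organelle genome the libraries held is not part of the lists.

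Whether plants of the 2 exposures differed in organelle calls was tested over the 4 single-plant libraries. Simulated-radiation plants had a mean of 28.0 ± 7.07 calls and Antarctic plants of 19.5 ± 0.707 (SD, n = 2 each). By exact two-sided permutation of libraries this difference of 8.5 calls had p = 0.333, the smallest that 2 against 2 libraries allow, or 1 after Benjamini-Hochberg adjustment over 4 counts. Chloroplast calls differed by 6.0, with 20.5 ± 9.19 against 14.5 ± 0.707 (exact permutation p = 1), and mitochondrial calls by 2.5, with 7.5 ± 2.12 against 5.0 ± 1.41 (exact permutation p = 0.667). Joins between the organelles numbered 0 in each library. The chloroplast counts of the exposures overlapped, at 27 and 14 against 15 and 14, and the mitochondrial counts met at 6.

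Mutant 4 set most of the difference between exposures. Without it the difference in organelle calls was 3.5, and in chloroplast calls it turned to -0.5. Without mutant 5 these were 13.5 and 12.5. With repeat calls counted once, the 4 single plants had fewer organelle calls after simulated radiation, by a difference of -1.5 (exact permutation p = 0.333), since 25 of the 27 chloroplast calls of mutant 4 were repeats of 2 joins. Outside the recurrent joins and mirrored inversions the difference was also -1.5. There Antarctic mutant 1 had 4 calls and Antarctic mutant 2 had 5, against 3 in each of the simulated-radiation mutants. The direction therefore depends on how repeat calls are counted.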

How the data were processed

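Split-read counts, positions, types and predicted lengths are those the authors deposited, with no normalization. Per the series' design text, PacBio Sequel reads were aligned with NGMLR and variants called with Sniffles. Positions refer to TAIR10, per the submitters' processing notes. Not given in the sources used here are versions, settings, the authors' filter and whether positions count from 0 or 1. Best positions were used, and 0 rows had an empty type.

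Members, gene lists and tests were chosen with earlier results of these data known, and the join forms (windows of 100 bp, mirror sums within 50 bp) after the positions were seen. Named by rule were the joins found in 5 or 4 libraries, the call with most reads in each library and organelle, and the longest of each type. The other calls are named in addition, after their values were seen. Chloroplast genes come from RefSeq's TAIR10.1 table (gene bodies, no exons), whose repeated genes have the mirror sum of the lists to 1 bp. Lists of mitochondrial genes were not used. Recurrence means the same type and both ends within 500 bp, for insertions the first position and the length. Libraries are the replicates in every test, and calls of a library are not. Recurring shares of the libraries are not independent, since each comes from matches to the others. Code was tested on simulated lists, with Python 3.11.15, pandas 2.3.3 and SciPy 1.17.1. Separate plants gave the single-plant libraries.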

Additional observations from a re-analysis of the deposited data

How the results depend on the processing

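Of 57 recomputed differences 45 kept their direction, leaving out joins between the organelles, which are 0 in each setting. None passed 0.05 in exact permutation tests, which 2 against 2 libraries or 5 pairs cannot reach. The difference in organelle calls between exposures turned to -1.5 with repeat calls counted once, -0.5 with at least 8 or 10 reads, and -1.5 without the recurrent and mirrored joins. That in chloroplast calls turned to -2.0, -1.0, -1.0 and -2.0 under the same settings. Leaving out 1 library gave 3.5 to 13.5 organelle, -0.5 to 12.5 chloroplast and 1.0 to 4.0 mitochondrial calls. The chloroplast-mitochondrion difference turned to -1.2 with at least 8 reads, and was 0.4 with at least 10, 5.2 with repeat calls counted once and 10.0 to 14.0 without 1 library. The recurring-share difference turned to -52.3 points with at least 10 reads, where each library in the comparison had only 1 organelle call. It was -34.3 without the recurrent and mirrored joins, a turn fixed by leaving out joins that were chosen because they recur. It was 36.2 with a 100 bp window, 28.6 with 1000 bp, 28.9 with type ignored, 31.9 with the first position columns, and 27.9 to 33.8 without 1 library. The read difference stayed negative, at -6.5 to -0.9, with -6.5 at the cut of 10 reads, where each organelle call had exactly 10. Leaving out these joins, and taking nuclear calls within 1 chromosome alone, were chosen after seeing the data. The cause of the turns was not tested, beyond the fewer calls each setting leaves. The exposures could not be compared in pairs because the groups share no replicate number. Depth is not listed, so absent calls can mean too few reads.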
